A study of Mus musculus with 4 samples.

Results

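Heat shock proteins and their co-chaperones were followed in the small intestine of mice that lack the Cyp3a cluster, a block of cytochrome P450 genes, and of wild-type mice. Members were taken by gene symbol alone, not by their values: every symbol matched to a probe that begins with Hspa, Hspb, Hspd, Hspe, Hsph, Hsp90, Dnaja, Dnajb, Dnajc, Hsf or Bag and a number, without the endoplasmic reticulum genes Hspa5, Hsp90b1, Dnajb9, Dnajb11 and Dnajc3. This gave 77 of the 21153 genes with a symbol. Cyp3a-/- mice (knockout 1 and 2) and wild-type mice (wild type 1 and 2) each had 2 one-colour Agilent arrays of total RNA. The series' text says that the 2 independent experiments used different animals; strain, age, sex and any pooling of animals are not given in the sources used here. The labels name no treatment besides the deletion.

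A level is the log2 processed signal of a gene's brightest probe minus the 75th percentile of that array, so 0 is that percentile's brightness. Levels of different probes cannot be set against each other, and only the 4 arrays of 1 gene are compared here. Of the 77 genes, 67 had a probe that passed the scanner's test of being well above background on 2 or more arrays, and were tested with limma across all 14395 genes that met that filter, as knockout minus wild type with its standard error (SE). Precision was limited by having 4 arrays, and SEs of the 67 genes ran from 0.26 to 0.68.

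Chaperones bind proteins that are not folded, and keep them from clumping. Hsp70 proteins do so in cycles driven by ATP, J-domain proteins (the Dnaja, Dnajb and Dnajc genes) hand them their clients and start the ATP step, and Hsp110 and BAG proteins release the nucleotide. Hsp90 finishes kinases and steroid receptors, Hsp60 and Hsp10 form the folding chamber of mitochondria, and small heat shock proteins hold unfolded proteins without ATP. Heat shock factor 1, encoded by Hsf1, binds heat shock elements in the promoters of many of these genes when unfolded protein builds up.

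Heat shock elements were looked for in promoter windows of RefSeq (GRCm38.p6, 250 bases before to 50 after a transcript start), as GAA-NN-TTC-NN-GAA or TTC-NN-GAA-NN-TTC, written here with dashes between triplets and spacers, which are each other's reverse complement, so both strands were read. A window was given for 60 of the 77 genes, and 4 of them, Hsph1, Hspd1, Hspe1 and Dnajb6, held the element, which is 6.67%, against 0.662% of all 27025 genes with a window. A match is only a run of letters, and no match says only that these letters are not in the window. The 3 windows below belong to the members with the element that had the largest positive difference. Dnajb6 had a difference of -0.09. Hspa1a and Dnajb1, with the largest positive differences of the tested members, had windows without the element, as did Hspb1, Dnaja1 and Bag3. No window was given for Hspa8, Hsp90aa1 and Hsp90ab1. A link between the element and the differences was not tested. Capitals mark the elements, and matches that overlap run together.
Hsph1 (chr5:149636287-149636586, minus strand): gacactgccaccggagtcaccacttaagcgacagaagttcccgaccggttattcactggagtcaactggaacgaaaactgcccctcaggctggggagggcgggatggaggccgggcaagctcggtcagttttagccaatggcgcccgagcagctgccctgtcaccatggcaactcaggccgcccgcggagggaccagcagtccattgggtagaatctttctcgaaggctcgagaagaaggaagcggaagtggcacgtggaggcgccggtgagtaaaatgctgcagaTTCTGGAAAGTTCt
Hspd1 (chr1:55087883-55088182, minus strand): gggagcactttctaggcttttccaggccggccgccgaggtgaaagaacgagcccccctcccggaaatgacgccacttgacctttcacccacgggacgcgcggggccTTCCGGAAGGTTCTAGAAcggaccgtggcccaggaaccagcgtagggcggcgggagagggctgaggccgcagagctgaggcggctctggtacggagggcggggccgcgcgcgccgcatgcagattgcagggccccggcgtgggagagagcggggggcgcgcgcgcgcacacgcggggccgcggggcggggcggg
Hspe1 (chr1:55087898-55088197, plus strand): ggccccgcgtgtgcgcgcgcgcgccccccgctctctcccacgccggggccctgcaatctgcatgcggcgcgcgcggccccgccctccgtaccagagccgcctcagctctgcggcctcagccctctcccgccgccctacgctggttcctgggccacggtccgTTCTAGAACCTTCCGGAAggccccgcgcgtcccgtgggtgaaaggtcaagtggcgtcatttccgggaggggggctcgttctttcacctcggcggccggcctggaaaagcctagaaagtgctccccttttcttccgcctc
Hspd1 and Hspe1 lie head to head, and the capitals of both windows are the same 18 bases of chromosome 1 (55088059 to 55088076) read from opposite strands. In each there are 2 overlapping matches. The match of Hsph1 has 13 bases and starts 36 bases after the transcript start of the window shown.

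Cyp3a11, the main check of the labels, had levels of -5.77 and -4.52 in knockout 1 and 2, not well above background, against 5.05 and 5.78 in wild type 1 and 2. The enterocyte markers Vil1, Sis, Lct, Alpi, Anpep, Fabp2, Apoa4 and Slc5a1 were well above background on all 4 arrays, so the tissue matched its label. Knockout 1 stood apart from the rest: over the 14395 genes its correlation was 0.948 with knockout 2, whereas knockout 2 correlated at 0.981 and 0.980 with wild type 1 and 2. Knockout 1 and wild type 2 shared a slide, so this 1 pair compares the genotypes within a slide. Knockout 2 and wild type 1 were each alone on theirs, so slide and genotype cannot be told apart between them.

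None of the 67 tested genes passed an adjusted p of 0.05 (limma, adjusted p = 1.00 for each), which does not show that levels were equal. Over all genes 0% were called higher and 0.0417% lower. Only 1 member, Dnajb1, had an unadjusted p under 0.05, as did 63 of all 14395 genes (0.438%). The differences of the 67 genes ran from -0.65 to 0.76 (log2), and 51 of them lay within 0.3 of 0. Differences were positive in 50 of 67 genes (74.6%), against 56.2% of all genes tested. Their median was 0.12, against 0.04 over all genes tested. By brightness, 10, 18, 13 and 26 of the 67 fell in the quartiles of all genes tested, dimmest first. Those quartiles had medians of -0.06, -0.01, 0.05 and 0.11.

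For 12 of the 67 genes (17.9%) both knockout arrays exceeded both wild-type arrays, where 8.66% of all genes did so, and for 3 (4.48%) both were lower than both, where 6.09% of all genes were. The 12 were Hspa1a, Dnajb1, Hsph1, Hsp90aa1, Dnaja1, Hspd1, Hspe1, Hspb11, Hspa14, Hspa8, Hsf1 and Dnajc5, and the 3 were Hsf4, Hspa12b and Dnajb6. With median scaling 17 members lay above (25.4%, against 11.05% of all genes) and 2 below (2.99%, against 4.94%). After normexp background correction with a fixed offset 8 lay above (11.9%, against 11.6% of all genes) and 7 below (10.4%, against 11.2%), so the members then stood near the share of all genes. That correction gave differences that depended on brightness over all genes, with a median of 0.79 in the dimmest quartile of genes and -0.49 in the brightest, against -0.06 and 0.11 with the processed signal. With quantile normalization after normexp 11 lay above (16.4%, against 8.70% of all genes) and 1 below (1.49%, against 6.79%).

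**Figure D1:**
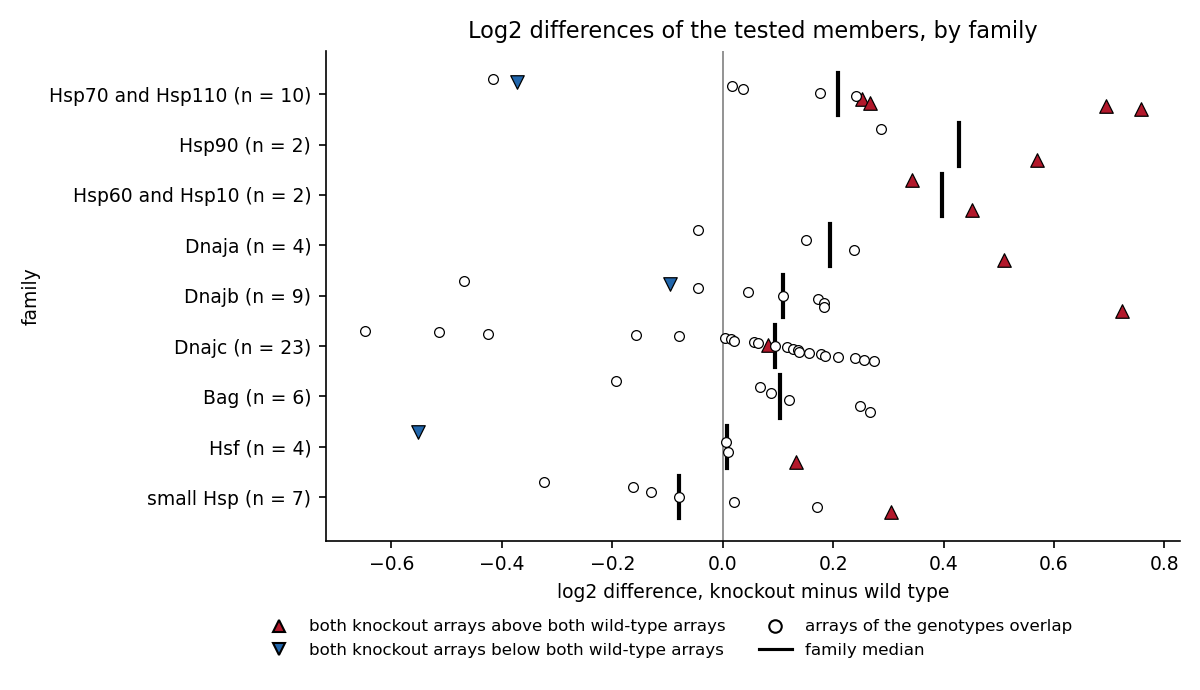
Log2 difference, knockout minus wild type (horizontal), of the 67 tested heat shock and co-chaperone genes, by family (vertical); upward triangles are genes with both knockout arrays above both wild-type arrays, downward triangles genes with both below, open circles genes whose arrays overlap, and bars family medians. The medians of Hsp90 (0.43) and of Hsp60 and Hsp10 (0.40), each of only 2 genes, lie farthest to the right. Both were negative after normexp alone (-0.29 and -0.22), and the small Hsp median is -0.08 but 0.24 after normexp alone.

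Genes that textbooks give as induced through heat shock factor 1 were 8 of the 12 members with both knockout arrays higher. The list was chosen with earlier results of these data known, so its counts only describe these arrays. Of 12 such genes, 11 were tested, since no probe was matched to Hspa1b. Their differences were positive in 10. The genotypes were apart with the knockout higher in 8 (72.7%, against 8.66% of all genes) and lower in 0 (against 6.09%). With probes past the background test on all 4 arrays, the knockout was higher for 7 genes of the list. Their median difference was 0.45 with the processed signal, 0.33 with quantile normalization, 0.51 with median scaling and -0.18 after normexp alone, a setting in which the brightest quartile of all genes, which held 9 of the 11, had a median of -0.49. With quantile normalization after normexp it was 0.29. The brightest quartile of all genes had a median of 0.11 with the processed signal. Outside this list the other 56 members had a median of 0.08, and 4 (7.14%) lay above and 3 (5.36%) below. Those shares were near the 8.66% and 6.09% of all genes. Relative to the wild-type mean, the list's median was 0.32 in knockout 1 and 0.52 in knockout 2, against 0.01 in wild type 1 and -0.01 in wild type 2.

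**Figure D2:**
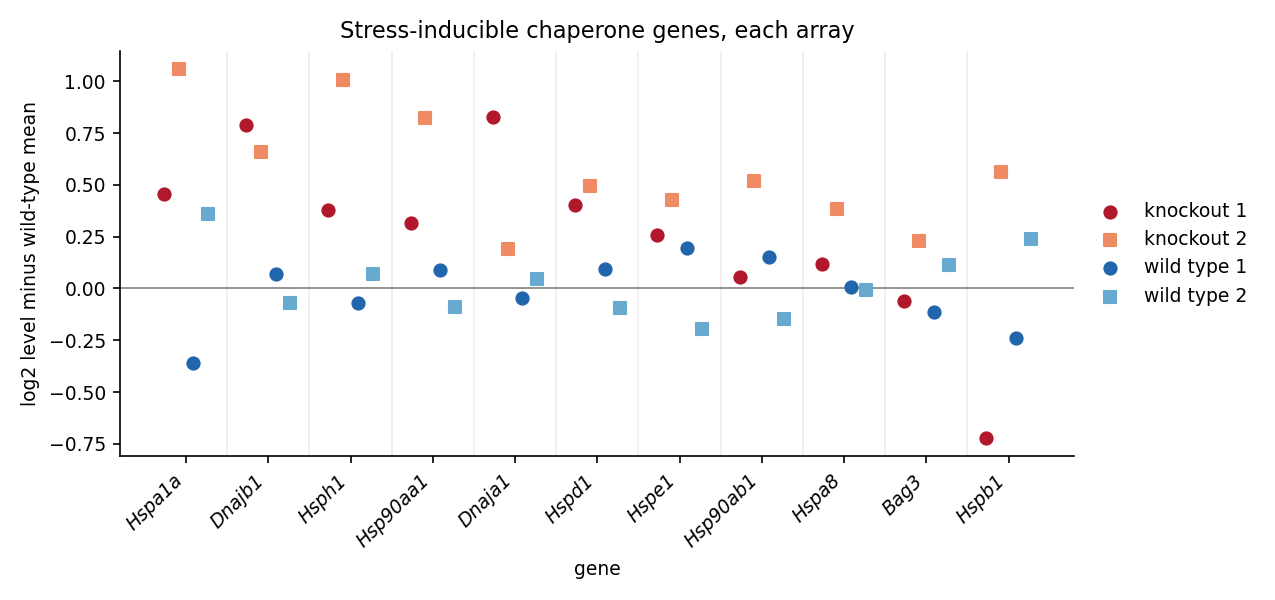
Level of each array minus the mean of the wild-type arrays (log2, vertical) for the 11 tested genes known to be induced through heat shock factor 1 (horizontal, by falling difference); circles and squares are replicates 1 and 2, red shades knockout and blue shades wild type. Both knockout points lie above both wild-type points for 8 genes and overlap them for Hsp90ab1, Bag3 and Hspb1. After normexp alone both lay above for 0 genes. Of the 8, Hspa1a was not well above background on wild type 1.

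Dnajb1 encodes Hsp40, the J-domain partner of Hsp70 in the cytosol. It had levels of 3.53 and 3.40 in knockout 1 and 2, against 2.81 and 2.67 in wild type 1 and 2. The arrays of each genotype lay close together and the genotypes apart, a 1.65-fold higher knockout signal (log2 difference 0.72 with an SE of 0.27; limma gave an unadjusted p = 0.034 and an adjusted p = 1.00). Its difference was 0.10 after normexp alone, 0.64 with quantile normalization, 0.65 to 0.79 when an array was left out and 0.86 within the shared slide.

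Hsph1 encodes Hsp110, which releases ADP from Hsp70 and helps to pull aggregates apart. Its levels were 1.43 and 2.06 in knockout 1 and 2, against 0.98 and 1.12 in wild type 1 and 2, so knockout 2 was the highest array (log2 difference 0.69, SE 0.31, 1.62-fold). A second probe gave 0.78 and 1.68 in the knockout, against 0.31 and 0.22 in the wild type. On both probes the genotypes did not overlap. The difference was 0.16 after normexp alone and 0.38 without knockout 2.

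Hspa1a, an Hsp70 gene that is low at rest and strongly induced by stress, was dim on this array, with levels of -3.42 and -2.81 in knockout 1 and 2, against -4.23 and -3.51 in wild type 1 and 2. Wild type 1 was not well above background, so only 3 of the 4 arrays measured it. The measured difference of 0.76 (SE 0.47) therefore rests in part on a signal at background. It was 0.40 without wild type 1, 1.12 without wild type 2 and 0.18 with quantile normalization after normexp, and knockout 1 exceeded wild type 2 by only 0.10. Its probe may also bind transcripts of Hspa1b, which is nearly identical, and binding between them was not checked.

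Hsp90aa1, the stress-inducible cytosolic Hsp90, had levels of 4.14 and 4.65 in knockout 1 and 2, against 3.92 and 3.74 in wild type 1 and 2 (log2 difference 0.57, SE 0.31, 1.48-fold). Its constitutive sister gene Hsp90ab1 had 5.73 and 6.19 in the knockout, against 5.82 and 5.52 in the wild type (0.29, SE 0.34). Hsp90ab1 overlapped between the genotypes and Hsp90aa1 did not, though the Hsp90aa1 difference was 0.32 without knockout 2. After normexp alone the differences were -0.15 for Hsp90aa1 and -0.42 for Hsp90ab1, and with quantile normalization after normexp they were 0.40 and 0.08.

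The mitochondrial pair Hspd1 and Hspe1, which share the promoter shown above, lay above the wild type together. Hspd1, the Hsp60 gene, had levels of 4.72 and 4.81 in knockout 1 and 2, against 4.41 and 4.22 in wild type 1 and 2 (log2 difference 0.45, SE 0.29, 1.37-fold). Hspe1, the Hsp10 gene, had 4.07 and 4.24 in the knockout, against 4.01 and 3.62 in the wild type (0.34, SE 0.30). Of its other 2 probes, 1 also kept the genotypes apart (0.33), and 1 had a difference of 0.28 with overlap. The pair's differences were -0.18 and -0.26 after normexp alone, and that of Hspe1 was 0.15 without wild type 2 and 0.54 without wild type 1. Hspa9, the Hsp70 of mitochondria, overlapped between genotypes, with 3.80 and 3.66 in the knockout, against 3.75 and 3.22 in the wild type. RefSeq lists pseudogenes of Hspd1, Hspe1 and Dnaja1, and binding of their transcripts to these probes was not checked.

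Dnaja1 encodes another J-domain protein of the cytosol. Its levels were 4.58 and 3.95 in knockout 1 and 2, against 3.71 and 3.80 in wild type 1 and 2, so knockout 1 stood highest (log2 difference 0.51, SE 0.33). The difference was 0.19 without knockout 1 and 0.83 without knockout 2. A dimmer probe had a difference of 0.38, also without overlap. The tested probe gave -0.16 after normexp alone.

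Hspa8, the constitutive Hsp70 of the cytosol, was among the brightest probes, with levels of 6.87 and 7.13 in knockout 1 and 2, against 6.76 and 6.75 in wild type 1 and 2 (log2 difference 0.25, SE 0.35). Its other probes had differences of 0.28 without overlap and 0.14 with overlap, and the tested probe -0.43 after normexp alone.

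Bag3, which couples Hsp70 to small heat shock proteins and autophagy, had 2.20 and 2.49 in the knockout, against 2.15 and 2.37 in the wild type. The Bag3 difference of 0.09 (SE 0.28) was within the spread of its arrays. It was negative after normexp (-0.50), with quantile normalization after normexp (-0.03), without knockout 2 (-0.06) and without wild type 1 (-0.03).

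Heat shock factor 1 itself differed little in level. Hsf1 had -0.50 and -0.50 in knockout 1 and 2, against -0.69 and -0.58 in wild type 1 and 2, which did not overlap but differed by only 0.13 (SE 0.27). Hsf2, a second heat shock factor, had a difference of 0.01, and Hsf5 also 0.01, with knockout 2 not well above background. Hsf4, known for its role in the lens, failed the background test on both knockout arrays, with levels of -5.17 and -4.45, against -4.20 and -4.31 in the wild type. Hsf4 entered the test only through the wild-type arrays, where it is higher, so its place among the 3 genes below the wild type is no support for a lower level. With probes past the background test on all 4 arrays, 2 members lay below.

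Of the remaining Hsp70 genes, Hspa14 had both knockout arrays above and Hspa12b both below the wild type, and the others overlapped. Hspa14, a ribosome-associated Hsp70, had 2.08 and 1.86 in the knockout, against 1.64 and 1.77 in the wild type (log2 difference 0.27, SE 0.26). Hspa4, an Hsp110 relative, had 3.93 and 3.29, against 3.43 and 3.44, so its knockout arrays lay on either side of the wild type. Hspa2, an Hsp70 known from germ cells, had -2.45 and -0.89 in knockout 1 and 2, against -1.49 and -1.01 in wild type 1 and 2. Knockout 1 was thus the lowest and knockout 2 the highest array for Hspa2 (difference -0.42, SE 0.55), and without knockout 1 its difference was 0.37. Hspa12b, an Hsp70 relative of endothelium, had -3.60 and -3.16, against -3.07 and -2.95 (difference -0.37, SE 0.39). The 4 endothelial markers Pecam1, Cdh5, Kdr and Vwf overlapped between genotypes with a median difference of -0.09, and Cdh5 (-0.17) and Vwf (-0.20) were negative in both slide pairs; their part in the Hspa12b value was not tested. After normexp alone the Hspa12b difference was 0.72. Hspa4l and Hspa13 had differences of 0.02 and 0.04.

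Among the J-domain genes, 9 of the Dnajb and 23 of the Dnajc genes were tested, with medians of 0.11 and 0.09 (0.14 and -0.05 after normexp alone). Dnajc5 encodes cysteine string protein, a vesicle chaperone of secretory cells and neurons. Its levels were 6.57 and 6.61 in the knockout, against 6.50 and 6.52 in the wild type, and although the genotypes did not overlap, the difference was 0.08 (SE 0.33), and -0.06 with quantile normalization. Of its other 2 probes, 1 had a difference of 0.55 without overlap and 1 a difference of 0.15. Dnajb6, which suppresses aggregation of polyglutamine proteins, had the smallest SE of the members, 0.26. It had 1.87 and 1.96 in the knockout, against 2.05 and 1.98 in the wild type (difference -0.09), and its other 3 probes had differences of -0.11, -0.15 and -0.11. Dnajb8, which is known from testis, had -1.20 and -1.58 in the knockout, against -0.38 and -1.46 in the wild type, so its difference of -0.47 rested on wild type 1 and was 0.07 without it.

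Dnajc10 showed the widest spread within the knockout. It encodes ERdj5, a reductase that unfolds proteins for export from the endoplasmic reticulum. Levels were 2.80 and 4.91 in knockout 1 and 2, against 4.25 and 4.76 in wild type 1 and 2, so knockout 1 was the lowest and knockout 2 the highest array. A second probe gave 0.10 and 1.93 in the knockout, against 1.31 and 2.02 in the wild type. The difference was -0.65 (SE 0.68). Without knockout 2 it was -1.70, whereas without knockout 1 it was 0.41. Dnajc12, a co-chaperone of aromatic amino acid hydroxylases, had -1.04 and 0.53 in the knockout, against -0.10 and 0.63 in the wild type. Dnajc1, a membrane J-protein of the endoplasmic reticulum, had 0.86 and 1.60, against 1.50 and 1.82. Both had knockout 1 as the lowest array, with differences of -0.51 and -0.43, and without knockout 1 that of Dnajc12 was 0.27. Of the 5 endoplasmic reticulum genes that the selection left out, Hspa5 had 5.77 and 6.01 in the knockout, against 5.82 and 6.17 in the wild type, and the differences of all 5 lay between -0.17 and 0.12.

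**Figure D3:**
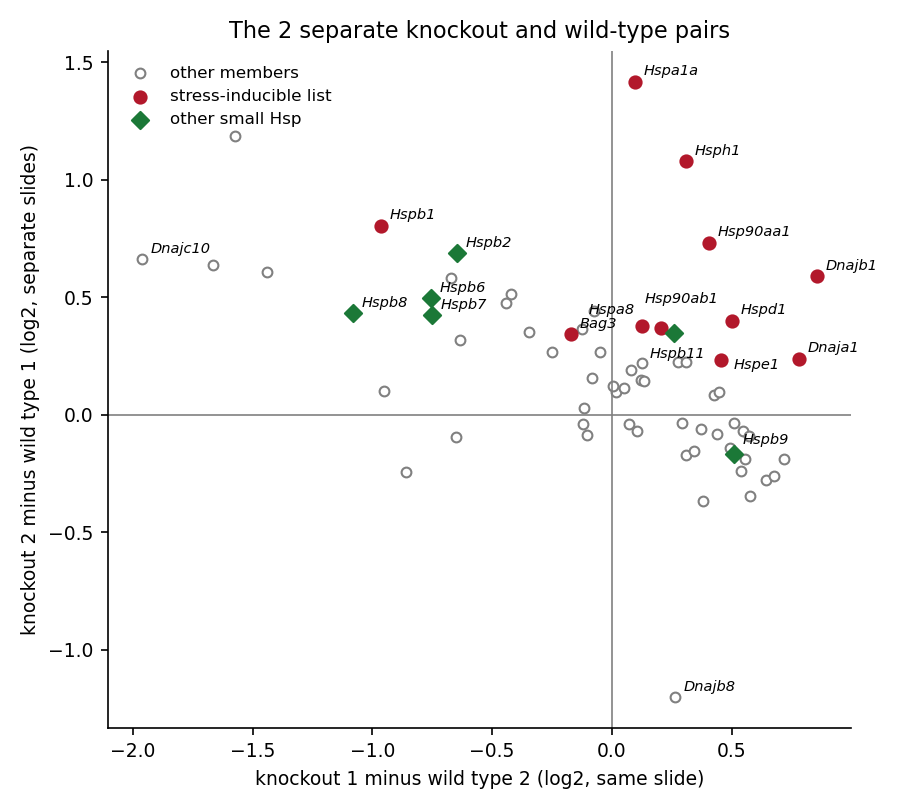
Each point is 1 of the 67 tested genes, with knockout 1 minus wild type 2 on the shared slide (log2, horizontal) and knockout 2 minus wild type 1 on separate slides (log2, vertical). The upper right holds 21 genes, 9 of them of the stress-inducible list, and the lower left 4; Hspb1, Hspb2, Hspb6, Hspb7, Hspb8 and Dnajc10 lie at the upper left, negative on the shared slide and positive across the other slides.

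The 2 knockout and wild-type pairs, which split the same 4 arrays used above, gave the inducible genes the same sign in most cases. Within the shared slide, knockout 1 minus wild type 2, their median was 0.31, and across the other slides, knockout 2 minus wild type 1, it was 0.40. Both were positive in 9 of 11 inducible genes (81.8%) and in 21 of all 67 members (31.3%), against 20.6% of all genes. Both were negative in 4 members (5.97%), against 12.9% of all genes. The exceptions among the inducible genes were Bag3 and Hspb1. A gene with both knockout arrays above both wild-type arrays is positive in both pairs by definition. This covers 8 of the 9 inducible genes, so the 2 pairs give no separate support.

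Of the 7 tested small heat shock genes, 5 had knockout 1 as the lowest and knockout 2 as the highest array. Hspb9, known from testis, had the reverse order, with -2.01 and -2.53 in knockout 1 and 2, against -2.36 and -2.53 in wild type 1 and 2 (difference 0.17). Hspb1 encodes Hsp27, an actin-associated holdase of muscle and epithelium, and had levels of 2.16 and 3.45 in knockout 1 and 2, against 2.64 and 3.12 in wild type 1 and 2. Hspb6, encoding Hsp20 of smooth muscle, had 0.89 and 2.19, against 1.70 and 1.65. Hspb8, a partner of Bag3, had -1.35 and -0.14, against -0.58 and -0.27. In each of these genes knockout 1 was the lowest array and knockout 2 the highest. The muscle genes Hspb2, with -1.69 and -0.49 in the knockout, against -1.18 and -1.05 in the wild type, and Hspb7, with -4.28 and -2.82, against -3.25 and -3.53, had that same order.

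Their mean differences were therefore small, from -0.32 for Hspb8 to 0.02 for Hspb2, with SEs of 0.45 to 0.57. Relative to the wild-type mean, the median of these 5 genes was -0.78 in knockout 1 and 0.56 in knockout 2. Cryab, a small heat shock gene outside the selection, had 0.09 and 1.58 in the knockout, against 1.08 and 1.26 in the wild type. Smooth muscle markers had the same order. All 8 tested markers (Acta2, Actg2, Myh11, Des, Tagln, Cnn1, Smtn and Synm) had knockout 1 as the lowest and knockout 2 as the highest array, and none was at background. Their median relative to the wild-type mean was -0.91 in knockout 1 and 0.68 in knockout 2, and their signals summed to 6.73 (log2) in knockout 1 and 8.33 in knockout 2, against 7.54 in wild type 1 and 7.74 in wild type 2. In bulk tissue, fewer cells of a type and less RNA per cell cannot be told apart, and the part of muscle content in the small heat shock values was not tested. Hspb11, which is an intraflagellar transport protein in spite of its name, had another order, with -0.23 and -0.47 in the knockout, against -0.82 and -0.49 in the wild type (difference 0.31, SE 0.29), and a difference of 0.14 without wild type 1.

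**Figure D4:**
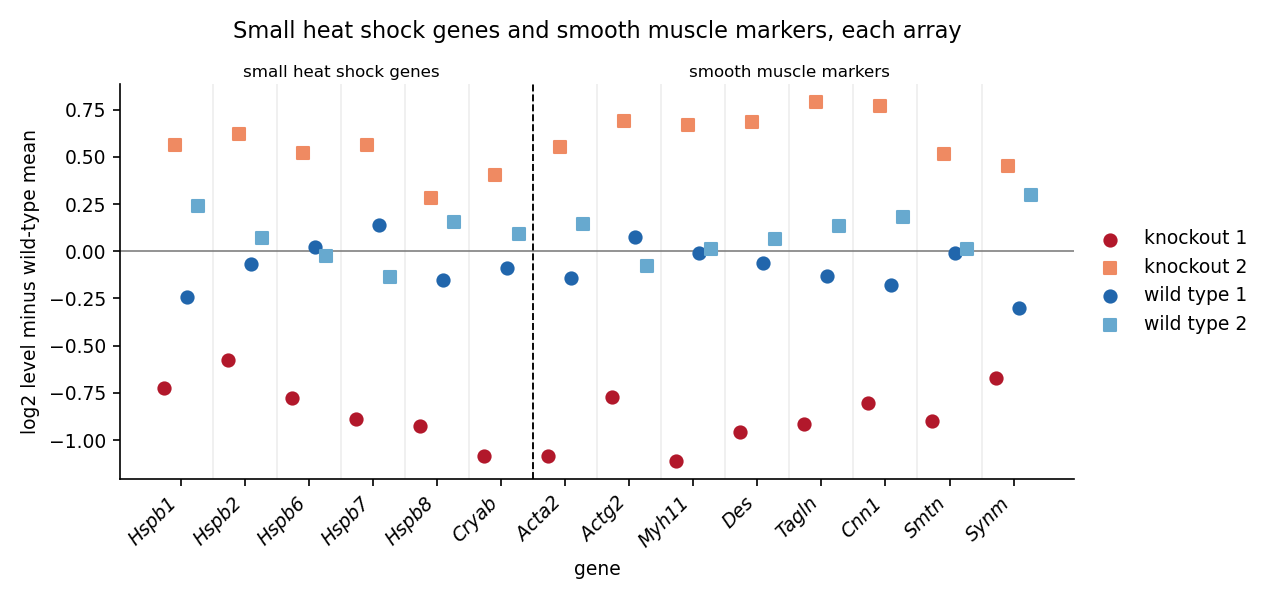
Level of each array minus the mean of the wild-type arrays (log2, vertical) for 6 small heat shock genes, Cryab included, and 8 smooth muscle markers (horizontal, split by the dashed line); circles and squares are replicates 1 and 2, red shades knockout and blue shades wild type. Knockout 1 is lowest and knockout 2 highest for each of these genes.

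Of the 11 inducible genes, Hspb1 was the one with that order. Markers of other cells were set beside them. Of the liver markers Alb, Apoa2, Serpina1a and Ttr all 4 had negative differences (median -0.97), and wild type 1 stood apart from wild type 2: their medians relative to the wild-type mean were 1.84 and -1.84, and Alb had levels of -5.56 and -2.60 in knockout 1 and 2, against 1.33 and -5.50 in wild type 1 and 2. Alb was not well above background on knockout 1 and wild type 2. Of the enterocyte markers all 8 had positive differences and overlapped between genotypes, with a median relative to the wild-type mean of 1.17 in knockout 1 and -0.26 in knockout 2, and a summed signal of 9.94 and 9.19, against 9.62 and 8.97 in wild type 1 and 2. Immediate-early genes, which respond to handling of tissue (Fos, Fosb, Jun, Junb, Egr1, Ier2, Atf3 and Dusp1), had a median of 0.57 in knockout 1 and -0.55 in knockout 2. These signals summed to 4.79 in knockout 1 and 4.23 in knockout 2, against 4.49 in wild type 1 and 4.48 in wild type 2, and 0 of the 8 were apart between genotypes. The stress-inducible list was positive in both knockout arrays (0.32 and 0.52). All 6 immune markers and 5 of 6 markers of neurons and glia had negative differences, with medians of -0.28 and -0.47. In each of these sets 2 markers (33.3%, against 6.09% of all genes) had both knockout arrays below both wild-type arrays. They were Cd79a and Lyz2 of the immune set, and Gap43 and Vip of the other. Cd79a was not well above background on knockout 2. The part of cell makeup or handling in the values of the list was not tested.

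BAG genes bind the ATPase domain of Hsp70. All 6 were tested and overlapped between genotypes, with a median of 0.10 (-0.28 after normexp alone). Bag1, which links Hsp70 to the proteasome, had 6.18 and 6.62 in the knockout, against 6.39 and 5.91 in the wild type (difference 0.25, SE 0.37). Its second probe had a difference of 0.20 without overlap. Bag2, an inhibitor of the ubiquitin ligase Stub1, had -1.99 and -0.10 in the knockout, against -1.29 and -0.41 in the wild type, so the knockout arrays were again the outer ones.

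Among 44 tested members not given in full by the naming rule, differences lay between -0.19 and 0.27, 36 of them positive. Of the 19 members with more than 1 probe past the filter, a probe of opposite sign occurred only for Dnajc11, at 0.16 on the probe used and -0.34 on the other.

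Of the 77 members 10 were not tested, and 8 of these (Dnajb13, Dnajc27, Dnajc5b, Dnajc5g, Dnajc6, Hsf2bp, Hsf3 and Hspb3) did not pass the background test on any of the 4 arrays. Hspa1l was well above it only on wild type 2. Hspa12a was above it only on knockout 1, with levels of -3.90 and -4.63 in knockout 1 and 2, against -5.46 and -5.96 in wild type 1 and 2. With 1 of the 4 arrays past the background test, no fold is given for Hspa12a.

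Partners of these chaperones that carry other names were listed by role, and 54 of 56 were tested. Of them 0 passed and 44 had positive differences, where 56.2% of all genes did. Both knockout arrays were higher for 12 (22.2%, against 8.66% of all genes) and lower for 1 (1.85%, against 6.09%). Their median was 0.12, and -0.25 after normexp alone. By brightness, 1, 5, 26 and 22 of them fell in the quartiles of all genes tested, dimmest first. The medians of those quartiles were -0.06, -0.01, 0.05 and 0.11 with the processed signal. All 8 subunits of TRiC, the chaperonin that folds actin and tubulin, had positive differences, from 0.04 for Cct3 to 0.24 for Cct5, and Cct2, Cct6a and Cct8 did not overlap. Among Hsp90 co-chaperones, Chordc1, itself a heat-inducible gene, had 0.81 and 0.78 in the knockout, against 0.48 and 0.50 in the wild type (difference 0.30, SE 0.26). Stip1, the Hop protein that joins Hsp70 to Hsp90, had 0.14 and 0.58, against 0.15 and -0.17 (0.37, SE 0.30), and overlapped. On the negative side, Sil1, which releases nucleotide from the Hsp70 of the endoplasmic reticulum, had 2.45 and 3.91 in knockout 1 and 2, against 3.79 and 3.77 in wild type 1 and 2. Only knockout 1 was low for Sil1, as for Dnajc10.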

How the data were processed

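RNA of small intestine was labelled with Cy3 and read on one-colour arrays with Agilent Feature Extraction 11.5.1.1, per the submitters' processing notes. The deposited processed intensity stands beside background-subtracted, median spot and background intensity, per the file headers; the steps behind the processed one are not named there. The authors' deposited table holds log2 values. Over 39408 probes its columns differed by less than 0.01 from the scanner values scaled to the 75th percentile and centred on each probe's median.

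Control spots and outlier spots (91 to 129 per array) were left out and no spot was saturated. Of 39429 probes, 28025 were named through their accession in RefSeq (GRCm38.p6); the array annotation is of another build, so no probe coordinates are given. Probes that passed the scanner's background test on 2 or more arrays were kept, and the brightest per symbol was used. Knockout minus wild type was fitted in limma 3.58.1 under R 4.3.3 (lmFit, then eBayes with trend), Benjamini-Hochberg adjusted over 14395 genes, which was tested on simulated data. Genes named in full are the brightest of each family, the 8 highest and 8 lowest differences, and textbook targets of heat shock factor 1; others named were chosen after their values were seen. The members and lists were chosen with earlier results of these data known. A slide block leaves no residual degrees of freedom. Mean spot signal is not in these columns, so normexp (offset 50) used median signals.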

Additional observations from a re-analysis of the deposited data

How the results depend on the processing

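Of 698 values under alternatives, 574 were counted as the same, by a rule that differed by kind of value. A gene's difference had to keep its sign and side of the threshold, whatever its size. A median, or a gene's difference between a pair of single arrays, had to move by less than the spread of its arrays, and could change sign. A count had to stay equal or of similar size. The small number of arrays limits all of these values. Normexp alone (offset 50) moved most: 3 genes were called higher and 10 lower over all genes, 0 of the inducible list lay above and 1 below, 7 members lay below, and 3 of the other chaperone genes lay above and 6 below. Its medians were -0.0511 for the members, -0.18 for the inducible list, -0.25 for the other chaperone genes, 0.0234 for Hsp70 and Hsp110, -0.29 for Hsp90, -0.22 for Hsp60 and Hsp10, -0.28 for Dnaja, -0.0511 for Dnajc, 0.60 for Hsf and -0.28 for Bag. Its differences of reversed sign were -0.43 for Bag1, -0.50 for Bag3, -0.16 for Dnaja1, 0.14 for Dnajb8, -0.59 for Dnajc5, 0.82 for Hsf4, -0.15 for Hsp90aa1, -0.42 for Hsp90ab1, 0.72 for Hspa12b, 0.0393 for Hspa2, -0.43 for Hspa8, -0.18 for Hspd1 and -0.26 for Hspe1. The cause was not tested beyond the medians by brightness given above.

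With quantile normalization after normexp, which was chosen after seeing the data, 1 member lay below, 5 of the inducible list lay above, and the medians were 0.0501 for the members, 0.29 for the inducible list, 0.0926 for Hsp70 and Hsp110 and 0.0360 for Dnajc, with Bag3 at -0.0295 and Dnajc5 at -0.0652. Quantile normalization gave 0.33 for the inducible list, 0.0848 for Hsp70 and Hsp110, -0.0591 for Dnajc5, and 2 other chaperone genes below. Median scaling gave 0.15 for Dnajc and 0 other chaperone genes below. With probes well above background on all 4 arrays 0 genes were called lower. Within the shared slide the medians were 0.31 for the inducible list, 0.11 for Hsp70 and Hsp110, -0.75 for small Hsp, 0.53 for Dnaja and -0.0856 for Hsf. Between the arrays alone on their slides, also added after seeing the data, they were 0.30 for Hsp70 and Hsp110 and 0.28 for Bag. A pair of single arrays gives no test and no count of genes whose genotypes do not overlap.

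Same-numbered arrays did not deviate together (correlation 0.05 over genes). The labels do not say whether the numbers pair the arrays, and this correlation cannot decide it. With the replicate block 6 genes were called higher and 26 lower, and 0 members.

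Leaving out each array in turn gave 0 to 135 genes called higher and 0 to 298 lower, the highest of both without knockout 2, and 0 to 1 members called. Counts were 18 to 36 members above and 9 to 21 below (26.9 to 53.7% and 13.4 to 31.3%, against 20.9 to 37.9% and 20.7 to 34.4% of all genes), 8 to 11 of the inducible list above and 0 to 1 below, and 16 to 35 other chaperone genes above and 3 to 9 below, with fewer arrays to overlap. These fits assume that the lone array of a genotype varies like the other genotype. Medians ran from 0.0567 to 0.19 for the members, 0.32 to 0.52 for the inducible list and 0.05 to 0.17 for the other chaperone genes. They were 0.19 to 0.27 for Hsp70 and Hsp110, 0.19 to 0.67 for Hsp90 and 0.25 to 0.54 for Hsp60 and Hsp10. For small Hsp they were -0.72 to 0.52, for Dnaja 0.14 to 0.47 and for Dnajb -0.10 to 0.25. For Dnajc they were -0.0248 to 0.16, for Hsf -0.14 to 0.15 and for Bag -0.0218 to 0.29. Signs turned within these ranges for Dnajc10 (-1.70 without knockout 2 to 0.41 without knockout 1), Dnajc12 (-1.30 to 0.27), Hspa2 (-1.20 to 0.37), Hspb1 (-0.72 to 0.56, and 0.16 without wild type 2) and Hspb8 (-0.93 to 0.28), each with the same arrays at its ends, and for Bag3 (-0.0580 without knockout 2 to 0.23 without knockout 1, and -0.03 without wild type 1) and Dnajb8 (-1.01 without wild type 2 to 0.0732 without wild type 1).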
